A study of Mus musculus with 12 samples.

Results

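Plekha7 and 9 further genes of the cell junctions that join heart muscle cells at the intercalated disc (Cdh2, Ctnna1, Ctnna3, Ctnnd1, Jup, Pkp2, Dsp, Dsg2 and Dsc2) were followed by RNA-Seq in mouse atria and ventricles. They are 10 of the 51826 genes in the count table, found there by symbol. Plekha7 was chosen by its measured log2 fold changes with genotype, which differed between the chambers, so its values are described below with no test. The other 9 were listed for their place in the junction, but with earlier results of these data known, as were the further lists below. The shares set beside all genes are therefore descriptions and no independent test of a list. All 10 passed the filter on low counts in both tissues.

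The libraries come from poly(A) RNA of 6 dox-fed mice, 3 of them CUG960 and 3 MHCrtTA controls, all female, on the FvB strain and 10 weeks old, with the atria and the ventricles of each mouse sequenced separately (12 libraries). CUG960 mice carry TREDT960I (homozygous) and MHCrtTA (hemizygous). Dox chow from postnatal day 1 induces in them an RNA of human DMPK sequence with 960 interrupted CUG repeats. The α myosin heavy chain promoter limits the transactivator, and with it the repeat RNA, to cardiomyocytes. Controls carry the MHCrtTA transgene alone and ate the same dox chow, so dox and the transactivator are shared by both groups. Whole chambers hold many cell types besides cardiomyocytes, and fewer cells of a type and less RNA per cell cannot be told apart in such samples. Totals ran from 116127966 to 160676189 counts per library, and levels are given as CPM (counts scaled to library size after TMM scaling over the 12 libraries). Myl7, a myosin light chain of atrial muscle, was above 2520 CPM in every atrial library and below 56 CPM in every ventricular one, so the tissue labels matched the chamber markers. The mouse Dmpk row does not check the genotype labels, since the transgene is human sequence. It overlapped between the groups in atria (432 to 447 CPM in controls, 441 to 501 CPM in CUG960). In ventricles it ran from 542 to 601.2 CPM in controls and from 600.1 to 757 CPM in CUG960.

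At the intercalated disc, cadherins reach across the gap between neighboring cardiomyocytes and catenins tie their tails to actin, which forms the adherens junction. The desmosome is built the same way from desmosomal cadherins, plakoglobin, a plakophilin and desmoplakin, which anchors desmin filaments. In the heart the proteins of both junctions mingle in a mixed structure, the area composita. PLEKHA7 is a pleckstrin homology domain protein that binds p120 catenin at adherens junctions of epithelia and brings in afadin, cingulin family proteins, PDZD11 and the microtubule-binding CAMSAP3. It is also known as a gene linked to blood pressure.

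Plekha7 (ENSMUSG00000045659, GRCm38 chr7:116123485-116308376, minus strand) was an atrial transcript in control hearts and was far higher in CUG960 than in control ventricles. Its level was 94.6, 113 and 102 CPM in the control atria and 2.39, 3.17 and 3.30 CPM in the control ventricles of mice V327, V333 and V334. In CUG960 mice V119, V120 and V123 it was 146, 143 and 152 CPM in atria and 25.0, 21.4 and 20.5 CPM in ventricles. All CUG960 libraries lay above all controls of their chamber, and every atrial library lay above every ventricular one. The ventricular values rest on 265 to 370 counts in controls and on 2561 to 3648 counts in CUG960. By edgeR's fit the level in CUG960 was 1.42-fold that of controls in atria (log2 fold change 0.51) and 7.55-fold in ventricles (2.92). The difference between these changes, ventricles minus atria, was 2.41 on the log2 scale, which is the feature by which the gene was chosen. The atrial level was 34.8-fold the ventricular one in controls and 6.53-fold in CUG960, so part of the chamber gap remained. Without each mouse in turn, the log2 fold change ran from 2.79 to 3.01 in ventricles and from 0.44 to 0.58 in atria.

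**Figure D1:**
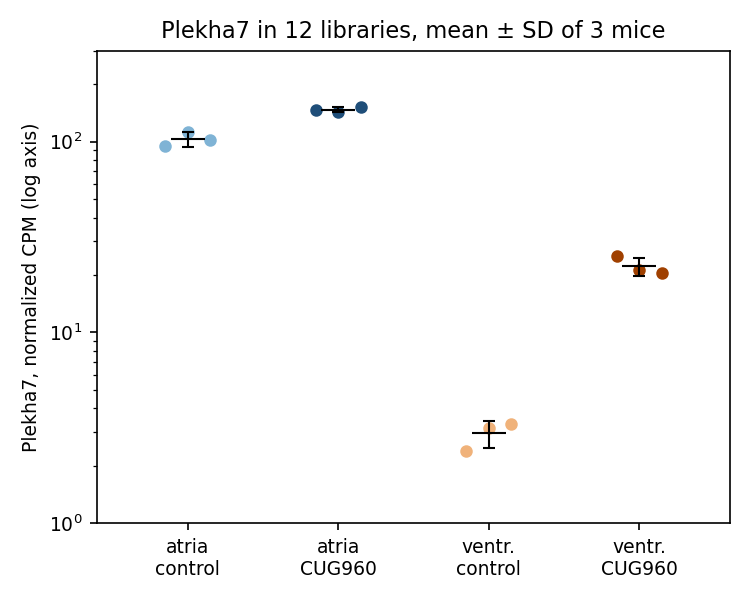
Plekha7 level in normalized CPM on a log axis for the 4 groups, with 1 point per library and the mean and SD of 3 mice in black. The CUG960 ventricles (20.5 to 25.0 CPM) lie between the control ventricles (2.39 to 3.30 CPM) and the control atria (94.6 to 113 CPM).

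Markers of atrial muscle and of mesothelium were read in the same ventricular libraries. The summed level of the atrial muscle markers (9 genes, none at 0 in every library, Nppa the most abundant) was 138, 136 and 211 CPM in control ventricles and 136, 291 and 377 CPM in CUG960 ventricles. Nppa, the atrial natriuretic peptide, rose there (log2 fold change 1.3, SE 0.31, edgeR adjusted P = 0.0314) and Bmp10, an atrial growth factor, fell (-4.06, SE 0.50, adjusted P = 0.00161), while the other 7 did not pass the test. So 2 of 9 (22.2%) passed, beside 9.94% of all genes tested in ventricles. Myl7 was 8.02, 4.98 and 19.3 CPM in the control ventricles and 0.192, 0.304 and 55.9 CPM in those of V119, V120 and V123. V119 and V120 had the lowest Myl7 of the 6 ventricular libraries, and V123 had the highest. The part of atrial tissue in the ventricular Plekha7 levels was not tested. Mesothelial and epithelial markers (14 genes, none at 0 in every library, Upk3b the most abundant) summed to 13.3, 15.3 and 13.4 CPM in control ventricles and to 11.9, 13.2 and 8.95 CPM in CUG960 ventricles. There 1 of 12 tested (8.33%), Krt18, fell and none rose, beside 9.94% of all genes past the test (4.2% as lower).

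Among the genes of the table, those whose pattern over the 12 libraries came close to that of Plekha7 included Igfbpl1 (Pearson r 0.991), Lrtm2 (0.987), Col13a1 (0.986) and Adcy1 (0.985), among the 13064 genes that averaged 1 CPM or more. These coefficients describe log2 CPM over libraries that fall into 4 groups, and the part of the chamber gap in them was not tested. Adcy1, an adenylyl cyclase, was 1.08, 1.02 and 1.64 CPM in control ventricles and 7.27, 11.0 and 6.61 CPM in CUG960 ventricles. The 2 groups did not overlap, and its atrial levels were also higher in CUG960 (169, 173 and 215 CPM) than in controls (118, 138 and 122 CPM). Adcy1 and Lrtm2 were picked for likeness to Plekha7, itself chosen by its change with genotype, so such differences follow from the choice. Lrtm2, a leucine-rich repeat membrane protein, changed by a log2 fold change of 3.12 in ventricles and 0.95 in atria, from a level below 0.2 CPM in control ventricles. Of the 9 other junction genes, Dsc2 came closest to Plekha7 (r 0.945, rank 188), followed by Dsg2 (0.896, rank 658) and Ctnna1 (0.876, rank 919). Jup ran opposite to it (-0.908) under TMM scaling. The chamber difference of Jup depends on the scaling used, as described below.

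In atria, 3 of the 9 other junction genes passed the test (edgeR quasi-likelihood, Benjamini-Hochberg adjusted P under 0.05 over all genes), with Ctnnd1 and Jup lower and Dsg2 higher in CUG960. Among all 17650 genes tested in atria, 14.6% passed, 7.95% as higher and 6.62% as lower. None of the 9 passed both the test and a 1.5-fold limit, which 5.49% of all genes did, and 6 of the 9 had an unadjusted P under 0.05, as did 30.2% of all genes. The median log2 fold change of the 9 was 0.12, against -0.01 over all genes tested. The groups did not overlap for 6 of the 9, with 3 higher and 3 lower in CUG960, and for 35.7% of all genes.

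Ctnnd1 (GRCm38 chr2:84600071-84650765, minus strand) encodes p120 catenin, the partner through which PLEKHA7 reaches the cadherin tail. Its level was 125, 126 and 119.1 CPM in control atria and 96.0, 103 and 90.5 CPM in CUG960 atria, with every CUG960 library below every control. It fell by 0.36 on the log2 scale (SE 0.06, adjusted P = 0.00953), or 1.28-fold, and it passed the test without any 1 of the 6 mice. In ventricles the groups overlapped (95.0, 90.3 and 106 CPM in controls, 91.6, 87.9 and 88.1 CPM in CUG960), with a log2 fold change of -0.12 (SE 0.08, adjusted P = 0.376). A read-through gene, Gm28635, shares 61.2% of the exon bases of Ctnnd1, and it was assigned at most 25 counts in any library.

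Jup (GRCm38 chr11:100368958-100397763, minus strand) encodes plakoglobin, a catenin found in both the adherens junction and the desmosome. It was 192, 202 and 203 CPM in control atria and 167, 166 and 167 CPM in CUG960 atria, again without overlap. It fell by 0.26 (SE 0.05, adjusted P = 0.0190), and it passed without V123 or V327 but not without any of the other 4 mice (adjusted P up to 0.0823). In ventricles the CUG960 libraries (223, 239 and 204 CPM) also lay below the controls (250.1, 277 and 252 CPM), but the log2 fold change of -0.23 (SE 0.08) did not pass (adjusted P = 0.128). A fit of all 12 libraries did call Jup lower in ventricles.

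The promoter windows of Ctnnd1 and Jup are shown since these genes fell together in atria. Windows of 250 bases before to 50 after the start, from RefSeq (GRCm38.p6), were used here for 4 of the 10 genes. Ctnnd1 is given by the one of its 2 windows that covers the gene start stated above (chr2:84650691-84650990, minus strand; the other lies upstream of the annotated gene) and Jup by its single one (chr11:100397741-100398040, minus strand). Both are written 5′ to 3′, and capitals mark the CCAAT box (CCAAT) and the GC box (GGGCGG) on either strand.
Ctnnd1: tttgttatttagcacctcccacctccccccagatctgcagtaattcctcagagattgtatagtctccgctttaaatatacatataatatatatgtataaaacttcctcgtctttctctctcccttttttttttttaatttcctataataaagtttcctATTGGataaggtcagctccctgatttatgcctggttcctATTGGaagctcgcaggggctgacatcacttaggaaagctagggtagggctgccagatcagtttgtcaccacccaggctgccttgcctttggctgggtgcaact
Jup: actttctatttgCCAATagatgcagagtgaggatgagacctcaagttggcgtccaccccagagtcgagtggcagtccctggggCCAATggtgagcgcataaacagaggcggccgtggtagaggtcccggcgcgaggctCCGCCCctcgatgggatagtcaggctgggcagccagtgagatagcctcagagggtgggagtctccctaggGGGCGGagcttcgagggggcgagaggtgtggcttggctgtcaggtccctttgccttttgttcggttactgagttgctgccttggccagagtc
Each window holds 2 CCAAT boxes, and the Jup window also holds 2 GC boxes. Of all 32851 windows, 37.4% hold a CCAAT box and 35.7% a GC box. An E-box (CACCTG, in 20.2% of all windows) and a GATA motif (AGATAA, in 11.2%) were searched on both strands too and have no match in either sequence. Of the other genes with windows, Dsp has 0 CCAAT boxes, 4 GC boxes and 1 E-box. The 3 windows of Ctnna3 hold 0, 0 and 1 CCAAT box.

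The third call in atria was Dsg2, desmoglein 2, the main desmoglein of cardiomyocytes. It was 122, 119.6 and 114 CPM in control atria and 132, 143 and 162 CPM in CUG960 atria, with no overlap and V123 the highest. It rose by 0.30 on the log2 scale (SE 0.08, adjusted P = 0.0415), and of the fits without 1 mouse only that without V119 passed. The call was also lost in a fit of all 12 libraries. Dsp (GRCm38 chr13:38151294-38198577, plus strand), desmoplakin, lay lower in every CUG960 atrial library (417, 447 and 496 CPM) than in the controls (567, 523 and 526 CPM). Its log2 fold change of -0.25 (SE 0.08) missed the threshold (adjusted P = 0.0661) and passed it without V123 (adjusted P = 0.0225) and with DESeq2. Cdh2, N-cadherin, the classical cadherin of the disc, was 164, 146 and 154 CPM in control atria and 168, 169 and 172 CPM in CUG960 atria (log2 fold change 0.13, SE 0.06, adjusted P = 0.184). Ctnna1, α-E-catenin, was 685, 639 and 612 CPM against 743, 709 and 725 CPM (0.17, SE 0.06, adjusted P = 0.114). For both genes the groups did not overlap, but the difference did not pass. Pkp2, Ctnna3 and Dsc2 overlapped between the groups in atria, with log2 fold changes of 0.21, 0.12 and 0.09.

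Cell type markers moved beside these atrial changes. Their counts stand beside the 14.6% of all genes that passed in atria (6.62% as lower). Of the fibroblast markers, 5 of 10 fell in atria and none rose. Their sum (Dcn the most abundant, none at 0) was 2485, 2828 and 2872 CPM in control atria and 2320, 2411 and 2049 CPM in CUG960 atria. Of the endothelial markers, 4 of 12 fell, and their sum (Pecam1 the most abundant, none at 0) was 1333, 1495 and 1188 CPM in controls and 1018, 1177 and 1092 CPM in CUG960. The part of these cells in the lower Ctnnd1 and Jup was not tested. The cardiomyocyte list had 2 genes higher and 2 lower of 8, and its sum was 47858, 46583 and 48273 CPM in controls and 48569, 49029 and 47044 CPM in CUG960.

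In ventricles, 3 of the 9 passed as well, all of them higher in CUG960: Ctnna3, Pkp2 and Dsc2. Of 16909 genes tested there, 9.94% passed, 5.73% as higher and 4.2% as lower. None of the 9 reached the 1.5-fold limit, which 4.75% of all genes passed together with the test. Of the 9, 4 had an unadjusted P under 0.05, as did 25.7% of all genes. The median log2 fold change of the 9 was 0.11, against -0.01 over all genes. The groups did not overlap for 6 of the 9, with 5 higher and 1 lower in CUG960, and for 31.2% of all genes.

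Ctnna3 (GRCm38 chr10:63430098-65003667, plus strand) encodes α-T-catenin, the α-catenin of the area composita. It was 34.5, 27.02 and 36.6 CPM in control ventricles and 57.8, 42.9 and 45.0 CPM in CUG960 ventricles, where V119 stood highest and all 3 lay above the controls. It rose 1.49-fold (log2 fold change 0.57, SE 0.14, adjusted P = 0.0331), and it passed without V334 but not without any other mouse (adjusted P up to 0.0973). Pkp2 (GRCm38 chr16:16213318-16272712, plus strand), plakophilin 2, a desmosomal armadillo protein, was 124, 125 and 120.003 CPM in controls and 151, 158 and 144 CPM in CUG960. It rose by 0.30 on the log2 scale (SE 0.07, adjusted P = 0.0278), without overlap, and passed without V333 only. Dsc2, desmocollin 2, was 57.3, 52.6 and 53.9 CPM in controls and 69.5, 70.8 and 61.0 CPM in CUG960. It rose by 0.30 (SE 0.08, adjusted P = 0.0464), without overlap, and passed without V123 only. Each of these 3 calls was thus lost in 5 of the 6 fits that leave out a mouse, and each kept its direction in all 6.

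The remaining ventricular values did not pass. Cdh2 was 289, 274 and 288 CPM in controls and 325, 303 and 289.6 CPM in CUG960 (log2 fold change 0.11, SE 0.07). Ctnna1 was 546, 559 and 531 CPM against 618, 559 and 566 CPM (0.09, SE 0.08). Dsp was 887, 786 and 999 CPM against 899, 911 and 955 CPM (0.05, SE 0.10), so its groups overlapped. Dsg2 was 47.3, 47.5 and 53.0 CPM against 63.2, 46.5 and 49.4 CPM (0.11, SE 0.12), also with overlap.

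**Figure D2:**
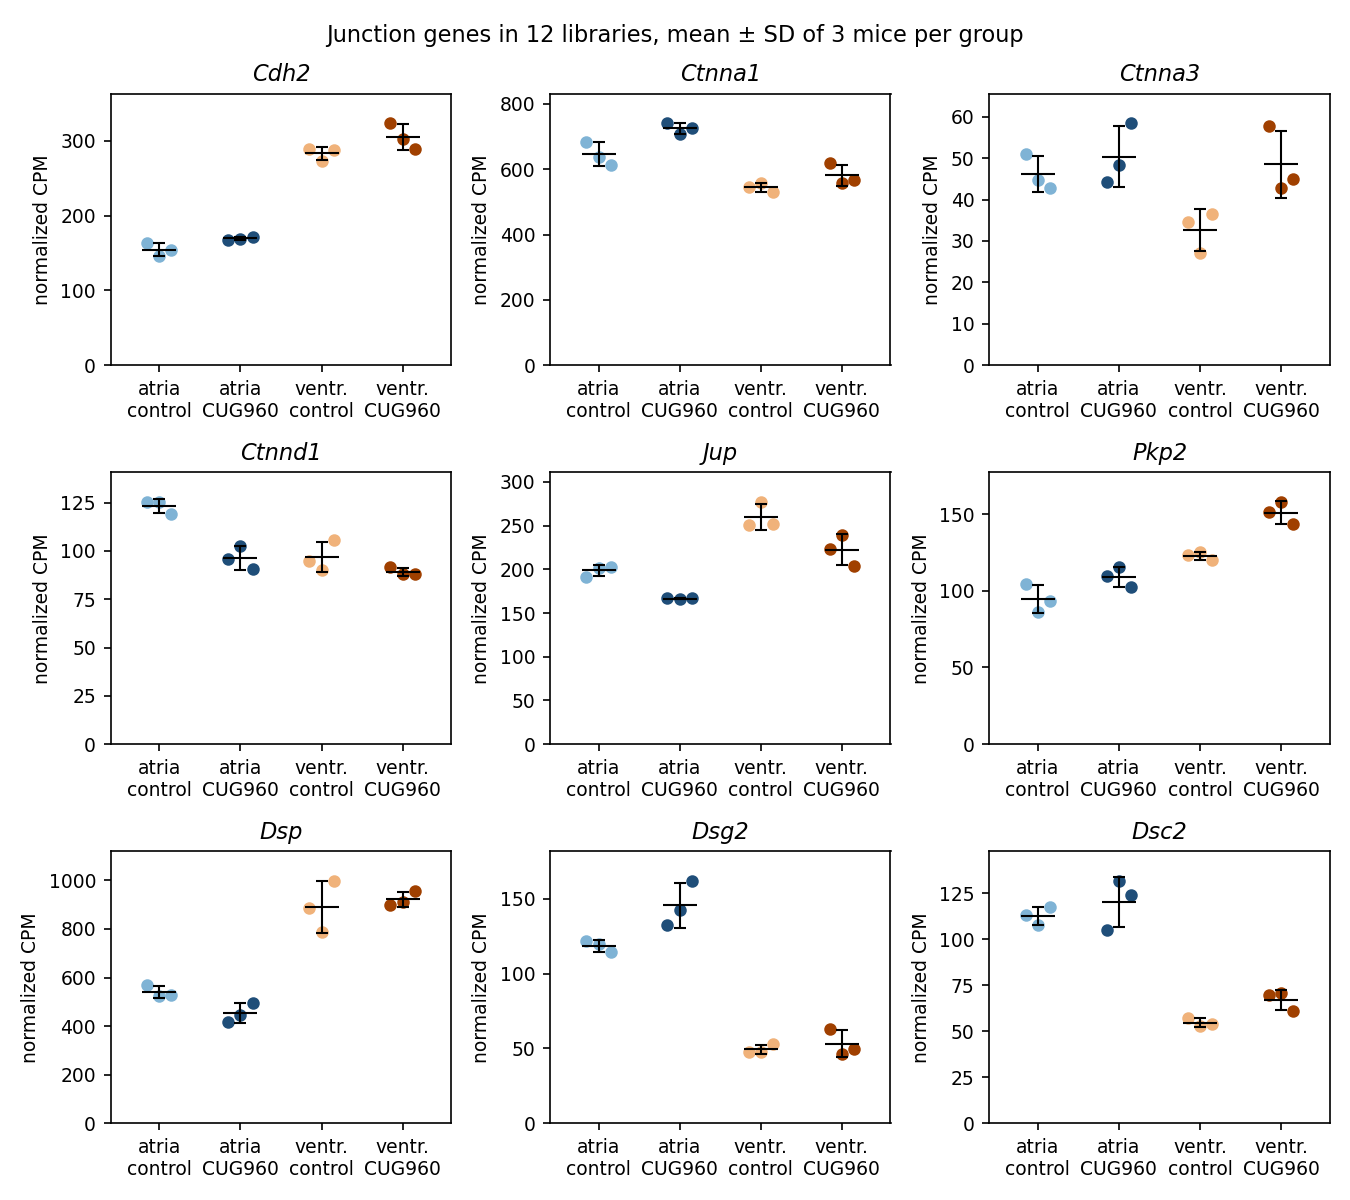
Normalized CPM of the 9 other junction genes in the 4 groups, on linear axes from 0, with 1 point per library and the mean and SD of 3 mice in black. The differences that passed the test are the lower Ctnnd1 and Jup and the higher Dsg2 of CUG960 atria and the higher Ctnna3, Pkp2 and Dsc2 of CUG960 ventricles.

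Endothelial and smooth muscle markers included lower ones beside these ventricular values, where 9.94% of all genes passed (4.2% as lower). Of 12 endothelial genes, 5 fell and 1 (Npr3) rose, and their sum was 1109, 972 and 1047 CPM in controls and 811, 799 and 844 CPM in CUG960. Of 9 smooth muscle and pericyte genes (Rgs5 the most abundant, none at 0), 5 fell, and their sum was 1208, 1110 and 1237 CPM in controls and 972, 922 and 913 CPM in CUG960. The adipocyte list had 3 of 6 tested genes lower, and Ryr2 was the single cardiomyocyte marker of 8 past the test, as lower. The part of these cells in the ventricular calls was not tested. The sums of the cardiomyocyte list overlapped in ventricles (67333 to 73472 CPM in controls, 67728 to 73884 CPM in CUG960). The remaining marker lists were counted in both chambers. Past the test in atria were 1 of 9 atrial muscle, 1 of 6 ventricular muscle, 2 of 7 lymphatic and 3 of 9 smooth muscle genes, beside 14.6% of all genes. In ventricles they were 2 of 7 ventricular muscle, 1 of 7 lymphatic and 2 of 6 Schwann and neuron genes, beside 9.94% of all genes. No mesothelial (0 of 14), adipocyte (0 of 6), Schwann and neuron (0 of 7) or leukocyte (0 of 10) gene passed edgeR's test in atria, against 4, 1, 1 and 1 at an unadjusted P under 0.05 and as many with DESeq2. No fibroblast (0 of 10) or leukocyte (0 of 10) gene passed it in ventricles, against 2 and 2 unadjusted and 1 and 2 with DESeq2.

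Whether the genotype changes differed between the chambers was tested by a tissue by genotype interaction term in a fit of the 12 libraries. That fit holds no term for the mouse. None of the 9 genes passed (edgeR, 0 of 9, and 0 of 9 with DESeq2), whereas 1.38% of 18327 genes did, and 3 of the 9 had an unadjusted P under 0.05, as did 12.3% of all genes. Those were Ctnna3, with a ventricular minus atrial difference of 0.45 (SE 0.20, adjusted P = 0.394), Dsp with 0.30 (SE 0.13, adjusted P = 0.372) and Ctnnd1 with 0.23 (SE 0.10, adjusted P = 0.345). The calls of Ctnna3, Pkp2 and Dsc2 in ventricles and of Ctnnd1, Jup and Dsg2 in atria are therefore not shown to be particular to a chamber. The 9 differences ran from -0.19 for Dsg2 (-0.41 to -0.06 without each mouse) to 0.45 for Ctnna3 (0.21 to 0.62 without each mouse).

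**Figure D3:**
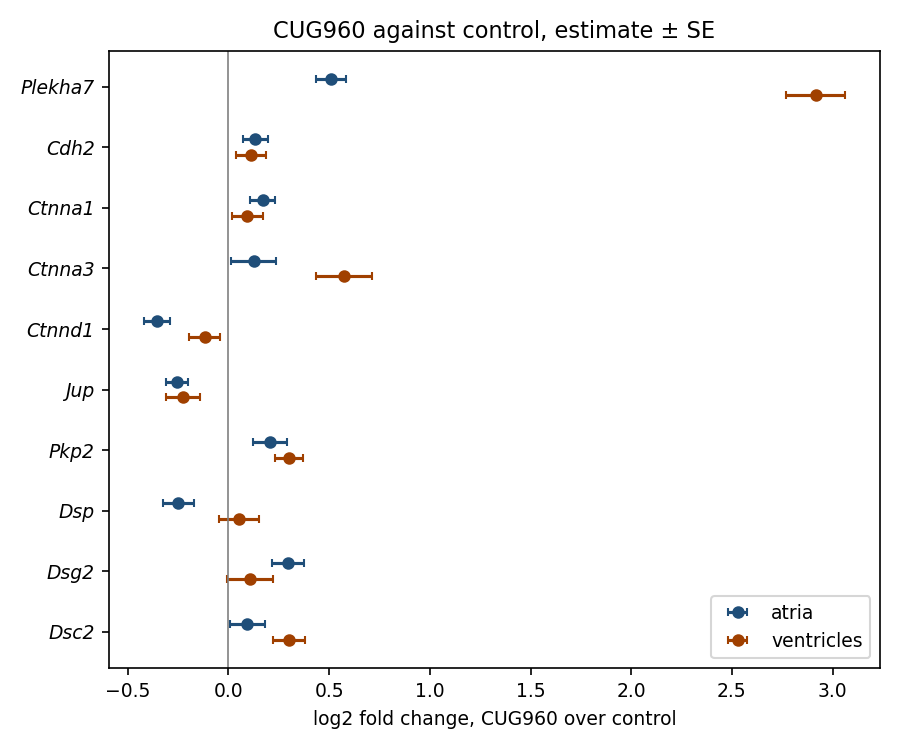
Log2 fold change of CUG960 over control with its SE for the 10 genes, in atria (blue) and ventricles (brown). Plekha7 stands at 0.51 in atria and 2.92 in ventricles, and the other 9 lie between -0.36 and 0.57 in both chambers.

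In control hearts all 9 passed the test of atria against ventricles, beside 55.7% of 17451 genes (28.3% higher and 27.5% lower in atria). Both chambers come from the same 3 mice, and the SE and P printed here treat them as independent. With mouse as a replicate block all 9 passed as well. The desmosomal cadherins were higher in atria, Dsg2 2.40-fold (log2 fold change 1.26, SE 0.07, adjusted P = 2.17e-06) and Dsc2 2.06-fold (1.04, SE 0.06, adjusted P = 4.25e-06). Ctnna3 (0.49, SE 0.12), Ctnnd1 (0.34, SE 0.07) and Ctnna1 (0.24, SE 0.07) were higher in atria by less. Cdh2 was 1.84-fold higher in ventricles (-0.88, SE 0.07, adjusted P = 1.32e-05) and Dsp 1.66-fold (-0.73, SE 0.10, adjusted P = 0.000296). Jup (-0.39, SE 0.07) and Pkp2 (-0.38, SE 0.08) were also lower in atria under TMM scaling. These 2 directions turn with scaling by total counts, which moves the median of all genes by 0.45 toward atria and puts Jup at 0.06 and Pkp2 at 0.07. Ctnna1 lost its call without any 1 of the 3 control mice (adjusted P from 0.0513 to 0.152), and Ctnna3 and Ctnnd1 lost theirs without V327 (adjusted P = 0.0576 and 0.0594).

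In CUG960 hearts 7 of the 9 passed the same test, beside 54.2% of 17559 genes. Dsg2 was 2.72-fold higher in atria (1.44, SE 0.13) and Dsc2 1.78-fold (0.83, SE 0.10), while Dsp was 2.05-fold higher in ventricles (-1.04, SE 0.09) and Cdh2 1.82-fold (-0.86, SE 0.07). Ctnna3 had a chamber difference of 0.04 (SE 0.14, adjusted P = 0.825) and Ctnnd1 one of 0.10 (SE 0.07, adjusted P = 0.254). Without each CUG960 mouse in turn the Ctnna3 difference ran from -0.13 to 0.27, so its direction is not settled. Ctnna1 (0.31), Jup (-0.43) and Pkp2 (-0.48) passed with the direction they had in controls under TMM scaling. With total counts Jup (-0.04) and Pkp2 (-0.09) did not pass, while Ctnna3 (0.43) and Ctnnd1 (0.49) did. The change of each chamber difference with genotype is the interaction given above, which no member of the 9 passed.

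**Figure D4:**
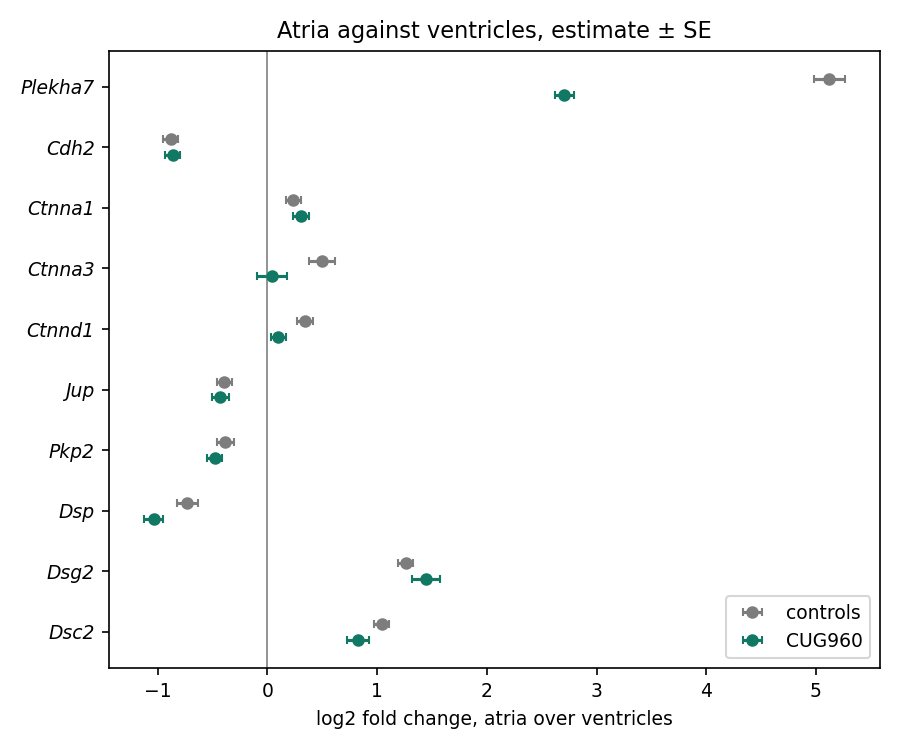
Log2 fold change of atria over ventricles with its SE for the 10 genes, in controls (grey) and CUG960 (green). Plekha7 moves from 5.12 to 2.71, Dsg2 and Dsc2 are right of 0 and Cdh2, Dsp, Jup and Pkp2 left of 0 in both genotypes under TMM scaling (with total counts Jup and Pkp2 move to 0.06 and 0.07 in controls).

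Levels of different genes were compared as CPM per kb of merged exons. Ctnna1 and Dsp were the most abundant of the 10 in all groups on that scale, with 100.4 and 55.8 CPM per kb in control atria and 84.9 and 92.2 in control ventricles. The Ctnna1 and Dsp levels in control ventricles differed by less than the SD of Dsp (11.0). Jup followed in control atria (30.9), then Dsc2 (21.3), Cdh2 (19.2), Pkp2 (17.6), Ctnnd1 (16.8), Dsg2 (14.3), Plekha7 (7.99) and Ctnna3 (6.39). Of these neighbors Cdh2, Pkp2 and Ctnnd1 lay within the SD of Pkp2 (1.72). In control ventricles Plekha7 was last at 0.229 CPM per kb and in CUG960 ventricles it was still last at 1.72, below Dsg2 (6.41) and Ctnna3 (6.72). With the length of the longest transcript in place of merged exons, Plekha7 stayed last in both ventricular groups, and 20 of the 40 ranks moved. Jup then stood above Dsp in control atria (62.0 against 56.2 CPM per kb) and in CUG960 atria (51.9 against 47.3).

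Within pairs of related catenins, α-T-catenin made up a small share. Ctnna3 was 5.98% ± 0.21 (SD, n = 3) of the sum of Ctnna3 and Ctnna1 per length in control atria and 5.81% ± 0.84 in CUG960 atria (exact two-sided permutation test, p = 0.8). In ventricles it was 5.07% ± 0.85 in controls and 6.89% ± 0.69 in CUG960 (exact permutation test, p = 0.1). Jup was 26.1% ± 0.58 of the sum of Jup and Ctnnb1, its close relative β-catenin, in control atria and 23.3% ± 0.89 in CUG960 atria (exact permutation test, p = 0.1). In ventricles it was 28.3% ± 1.23 in controls and 22.2% ± 1.88 in CUG960 (exact permutation test, p = 0.1). With 3 mice against 3 no p-value below 0.1 is possible, and the shares of the groups did not overlap in the last 3 of these 4 comparisons. Ctnnb1 itself was 531, 528 and 529 CPM in control ventricles and 634, 607 and 642 CPM in CUG960 ventricles (log2 fold change 0.25, SE 0.07, adjusted P = 0.0616).

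Other components of the adherens junction changed in both directions. Of 19 tested in atria 4 rose and 3 fell, and of 18 in ventricles 5 rose and 2 fell, with list medians of 0.11 and 0.04 on the log2 scale. So 7 of 19 (36.8%) passed in atria, beside 14.6% of all genes, and 7 of 18 in ventricles, beside 9.94%. Pkp4, a p120 family armadillo protein, rose from 191, 186 and 176 CPM to 298, 288 and 322 CPM in atria (0.72, SE 0.07, adjusted P = 0.000627). In ventricles it rose from 118, 111 and 129 CPM to 220.4, 221 and 230.1 CPM (0.91, SE 0.08, adjusted P = 0.000200), so that both chambers were free of overlap. Vcl, vinculin, which strengthens the link of catenins to actin, fell in atria from 182, 197 and 203 CPM to 118, 135 and 136 CPM (-0.58, SE 0.08, adjusted P = 0.00259). In ventricles its log2 fold change was -0.14 (SE 0.09, adjusted P = 0.339). Nectin1, an immunoglobulin-type adhesion protein, fell in atria by 0.73 from about 3 CPM, and Cdh4, R-cadherin, rose in ventricles by 0.87 (SE 0.14, adjusted P = 0.00544) to 14.6, 13.9 and 13.9 CPM. Cdh5, VE-cadherin of endothelium, fell in both chambers (-0.46 and -0.42) along with the endothelial markers above, a list that also holds it.

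The remaining desmosome genes had 2 of 10 tested higher and 3 lower in atria (50% of the list) and 1 of 10 higher in ventricles (10%), beside the same 14.6% and 9.94% of all genes. The ventricular one was Pkp4, which this list also holds. Des, the muscle intermediate filament protein desmin, fell in atria by 0.29 (SE 0.07, adjusted P = 0.0313). Plec, plectin, which ties filaments to junctions, fell there by 0.45 (SE 0.08, adjusted P = 0.00758). Dsg1a, a desmoglein of stratified epithelia, rose in atria by 1.33 (SE 0.30, adjusted P = 0.0239), but its level was below 0.5 CPM in every atrial library.

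Known binding partners of PLEKHA7 were counted as a further list. Of 14 tested in ventricles 1 rose and 1 fell (14.3%, beside 9.94% of all genes), and of 15 in atria 2 rose and 3 fell (33.3%, beside 14.6%). Pdzd11, which docks on PLEKHA7, was between 16.8 and 19.4 CPM in all 12 libraries. Afdn, afadin, had log2 fold changes of -0.15 (adjusted P = 0.170) in atria and -0.08 (adjusted P = 0.728) in ventricles, and Camsap3 was near 1 CPM throughout. Kifc3, a minus-end kinesin of junctions, fell in both chambers, by 0.43 (SE 0.08, adjusted P = 0.0102) in atria and by 0.38 (SE 0.09, adjusted P = 0.0335) in ventricles. Cgnl1, paracingulin, fell in atria from 126, 149 and 117 CPM to 85.8, 95.6 and 89.4 CPM (-0.54, SE 0.09, adjusted P = 0.00882). In ventricles it was 47.1, 46.0 and 55.5 CPM in controls and 66.0, 61.5 and 58.3 CPM in CUG960 (0.32, SE 0.09, adjusted P = 0.0543). The chambers differed in this change by 0.86 (SE 0.14, interaction adjusted P = 0.0102). Tjp1, the scaffold ZO-1, rose in atria by 0.37 (SE 0.09, adjusted P = 0.0320). Among 7 other PLEKHA genes 2 passed in atria (28.6%) and 1 in ventricles (14.3%). Plekha3 rose in both chambers (0.22 and 0.32) and Plekha5 in atria (0.50, SE 0.06, adjusted P = 0.00251). Plekha6 did not pass in either chamber (log2 fold change -0.37, adjusted P = 0.120, in atria and -0.15, adjusted P = 0.559, in ventricles). Its atrial groups only just failed to overlap (74.64 CPM in V119 of CUG960 against 74.69 CPM in control V334), as 35.7% of all genes did not overlap there.

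**Figure D5:**
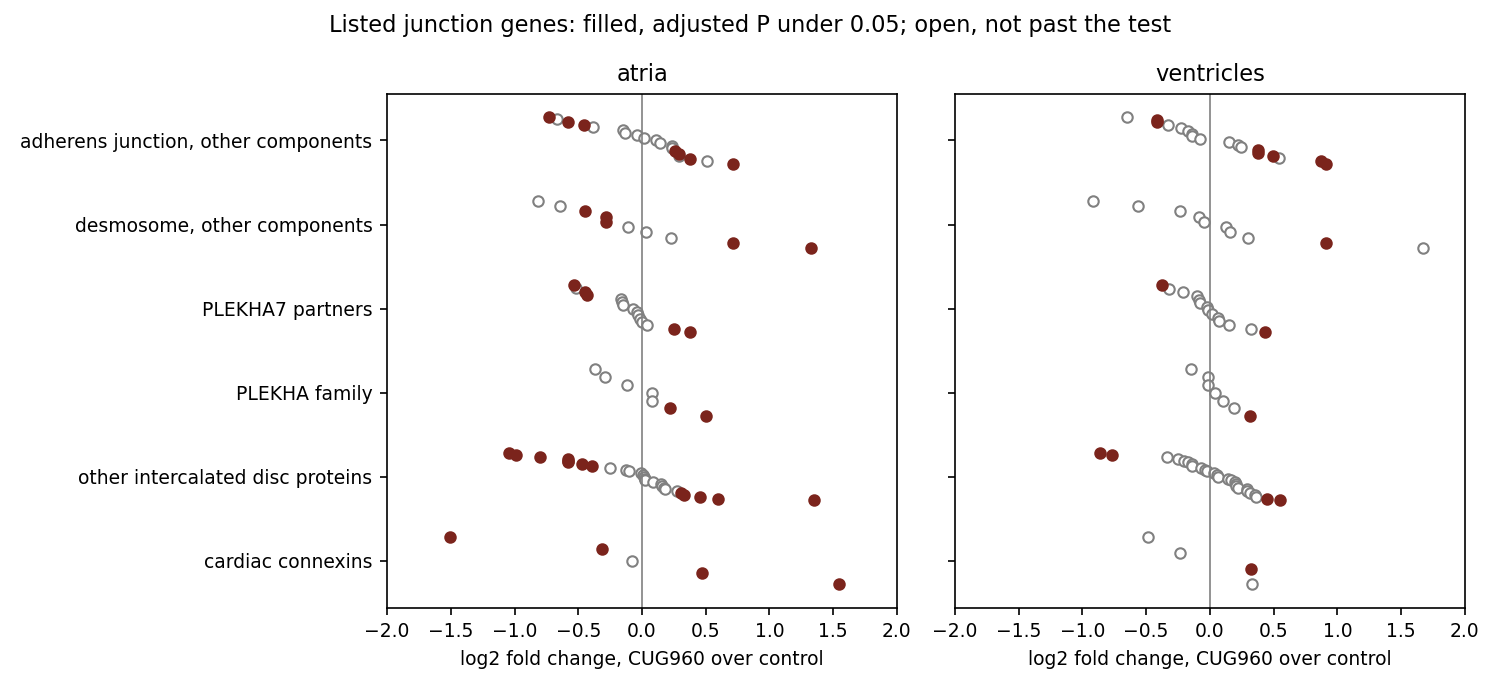
Log2 fold change of CUG960 over control for each tested gene of 6 lists of junction genes, in atria (left) and ventricles (right), with filled points for genes past the test and open points for the others. In the list of other disc proteins 13 of 27 genes are filled in atria and 4 of 27 in ventricles.

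Further proteins of the intercalated disc were tested as a list of 27, of which 5 rose and 8 fell in atria and 2 rose and 2 fell in ventricles (48.1% and 14.8% of the list, beside 14.6% and 9.94% of all genes). Xirp2, an actin-binding repeat protein, fell in atria from 466, 447 and 450.4 CPM to 198, 239 and 249.5 CPM (-0.99, SE 0.09, adjusted P = 0.000516). Its relative Xirp1 fell too (-1.05, SE 0.28, adjusted P = 0.0408), with controls spread from 235 to 603 CPM. Popdc3, a cyclic nucleotide-binding membrane protein, rose in atria from 9.74, 7.86 and 10.0 CPM to 19.9, 27.9 and 22.5 CPM (1.35, SE 0.14, adjusted P = 0.000984). Fgf13, a modulator of sodium channels, rose in atria by 0.60 (SE 0.07, adjusted P = 0.00154). Lims2, a partner of integrin-linked kinase, fell in both chambers (-0.80 and -0.86). Of the connexins, 2 of 5 rose and 2 fell in atria (80%) and 1 of 4 rose in ventricles (25%). Gja5, connexin 40 of atria and conduction tissue, fell in atria from 36.0, 43.8 and 42.6 CPM to 15.8, 11.97 and 15.2 CPM (-1.51, SE 0.12, adjusted P = 0.000309). Gja1, the main gap junction protein connexin 43, fell in atria from 263, 248 and 254 CPM to 198, 213 and 205 CPM (-0.31, SE 0.06, adjusted P = 0.0102). In ventricles it rose from 242, 255 and 251 CPM to 344, 306 and 287 CPM (0.33, SE 0.08, adjusted P = 0.0409), and the difference between the chambers passed the test (0.64, SE 0.10, interaction adjusted P = 0.00802). Gjd3, a connexin below 0.5 CPM in every library, rose in atria by 1.55 (SE 0.29).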

How the data were processed

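RNA-Seq of poly(A) RNA gave 12 libraries, of atria and ventricles from 3 mice per genotype. The authors sequenced paired-end, stranded TruSeq libraries and quantified genes with RSEM (version 1.3.1) against mm10 (GRCm38), and they deposited expected counts as whole numbers per gene symbol (51826 rows). The strand setting is not given in the sources used here. Levels are these counts scaled to CPM by TMM. Each chamber was fitted alone with edgeR 4.0.16 (R 4.3.3) by glmQLFit and glmQLFTest after filterByExpr, and P was adjusted over all genes tested. SE is the log2 fold change over the square root of F, and for Plekha7 the SE drawn in the figures is no test. The steps were tested on simulated data. Alternatives were DESeq2 1.42.0, other scalings and filters, a block for the mouse, and fits that omit 1 mouse at a time. Lists hold other adherens, desmosome, disc and connexin genes, PLEKHA7 partners, PLEKHA genes and markers of 11 cell types. Members and lists were chosen with earlier results of these data known. Named were all members, 12 fixed genes, and listed genes past the test and 1.5-fold in a chamber, and a few further called genes (Cdh5, Plec, Plekha3, Krt18) were chosen after their values were seen. Some genes that the rule names are not reported here. Atria and ventricles pair by mouse, since both come from the same animal. Deviations of the pairs correlated at 0.05 to 0.30, and those of different mice of a genotype at -0.27 to 0.11. The atria of V119 correlated less with its own ventricles (0.05) than with those of V120 (0.11). Gene positions and exon lengths are from GENCODE M21. Replicate libraries of a group differed beyond counting noise in every pair (chi-square per degree of freedom 38.3 to 113), and intervals of counts cover counting error only.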

Additional observations from a re-analysis of the deposited data

Results flagged for a closer look

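In 8 of the 186 listed genes tested (4.3%, beside 1.38% of all genes) the change with genotype differed between the chambers by the interaction test (edgeR, adjusted P under 0.05 over 18327 genes), given here as the ventricular minus the atrial log2 fold change. With mouse as a replicate block 16 listed genes passed, these 8 among them, and without each mouse 3 (without V327) to 7 (without V334) did. None is among the 9 junction genes tested. Among junction genes they were Ctnnal1, an α-catenin relative (-0.56, adjusted P = 0.0254), Cgnl1 (0.86), Popdc3 (-1.13) and Gja1 (0.64). Among cell type markers they were Nppa (1.72, adjusted P = 0.0494), Bmp10 (-4.10, adjusted P = 0.00208), the endocardial receptor Npr3 (0.75, adjusted P = 0.0293) and Tagln, a smooth muscle actin-binding protein (-1.85, adjusted P = 0.0445). Tagln was 32.3, 17.1 and 18.0 CPM in control atria and 48.5, 34.4 and 73.2 CPM in CUG960 atria, where V123 was highest.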

How the results depend on the processing

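Directions of the junction genes that passed held in all alternatives run with the exception of Jup (0.064) and Pkp2 (0.071) in atria against ventricles of controls under total counts, a scaling chosen after seeing the data. Their calls did not hold as well. With DESeq2 4 of the 9 passed in atria (Dsp was added). In a fit of all 12 libraries 2 passed in atria (Dsg2 was lost) and 4 in ventricles (Jup was added). Leaving out each mouse gave 1 to 3 in atria, 0 to 1 in ventricles, 6 to 8 in the control chambers and 7 each time in the CUG960 chambers. With a 1.5-fold limit added, 0 passed for either genotype comparison and 4 for either chamber comparison, and with a limit of 1.5 on the log2 scale none did (0). Genes past the test without each mouse numbered 1235 to 2584 in atria (2573 with all), 784 to 1347 in ventricles (1680), 74 to 131 for the interaction (253), 7679 to 8638 in control chambers (9726) and 7493 to 7965 in CUG960 chambers (9517). With the 1.5-fold limit they were 969, 804, 6098 and 5900, and with the log2 limit of 1.5 they were 216, 199, 2233 and 2200. DESeq2 gave 652 for the interaction. With mouse as a replicate block they were 1.82% of genes for the interaction (1.38% without), 9739 in control chambers and 9729 in CUG960 chambers. The block changed no call of the 9 junction genes. Total counts moved the share of higher calls from 54.6% to 66.0% in atria, 57.7% to 81.6% in ventricles, 50.2% to 65.5% in the interaction, 50.7% to 81.8% in control chambers and 49.2% to 79.7% in CUG960 chambers, and the median of all genes by up to 0.45 (control chambers). The change of the Ctnna3 share in atria (-0.16 percentage points) ran from -0.61 to 0.23 without each mouse. Where no cause is shown by the construction of an alternative, the cause was not tested. Plekha7 at 265 to 370 counts in control ventricles is the least deeply counted member.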
